A study of Mus musculus with 39 samples.

Results

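ISRIB is a small molecule that binds the translation factor eIF2B, and these data give the mRNA levels of its target in the lung cells of mice that received it. The genes described here are the 5 that encode eIF2B (Eif2b1, Eif2b2, Eif2b3, Eif2b4 and Eif2b5), 3 that encode eIF2 (Eif2s1, Eif2s2 and Eif2s3x), and Eif2a. They were listed by symbol, with earlier results of these data known, and all 9 were found among the 43430 genes of the count table. Every one of the 9 passed the filter on low counts in each fit. The 39 RNA-seq libraries came from sorted lung cells of C57BL/6J mice. The 20 monocyte libraries, 5 in each of the groups young saline, young ISRIB, old saline and old ISRIB, came from naive lungs. The 19 macrophage libraries came from Siglec F-low alveolar macrophages of bleomycin-treated mice, with 5 in each of the same groups except young ISRIB, which had 4. In the bleomycin mice ISRIB or saline was injected daily into the peritoneum from day 7 and the cells were taken on day 21. The timing in naive mice is not given in the sources used here. Young mice were 8 to 12 weeks old and old mice over 18 months by the sample labels. The design text of the series instead has 3 to 5 months for the young and 18 to 24 months for the old. All macrophages came from injured lungs and all monocytes from uninjured lungs, so cell type and bleomycin cannot be told apart. The labels do not state that the libraries of a group came from separate animals, so the p-values measure the spread between these samples.

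The factor eIF2 carries the initiator methionyl-tRNA to the small ribosomal subunit in its GTP-bound form and leaves it bound to GDP. eIF2B is the guanine nucleotide exchange factor that reloads eIF2 with GTP. It is a decamer with paired copies of each subunit: gamma (Eif2b3) and epsilon (Eif2b5) form the catalytic part, while alpha (Eif2b1), beta (Eif2b2) and delta (Eif2b4) form the regulatory core. When stress kinases phosphorylate eIF2 alpha, the product of Eif2s1, the phosphorylated eIF2 binds the regulatory core and inhibits exchange, which is the central step of the integrated stress response. ISRIB binds in a pocket across the beta and delta subunits, holds the decamer together and lowers the sensitivity of eIF2B to phosphorylated eIF2. Eif2s2 encodes the beta subunit of eIF2. The gamma subunit, which holds the nucleotide and the tRNA, is encoded in mice by an X-linked and a Y-linked gene, Eif2s3x and Eif2s3y. Eif2a encodes eIF2A, a separate initiation factor that is not a subunit of eIF2 despite its name. mRNA counts give neither the amount of these proteins nor the phosphorylation of eIF2 alpha.

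All loci are protein-coding genes in GENCODE vM21 on the mouse build mm10. Eif2b1 (ENSMUSG00000029388) lies on the minus strand at chr5:124570213-124579131. Eif2b4 (ENSMUSG00000029145) lies on the same chromosome and strand at chr5:31187558-31193430. Eif2b2 (ENSMUSG00000004788) lies on the plus strand at chr12:85219481-85226628, and Eif2s1 (ENSMUSG00000021116) on the plus strand of the same chromosome at chr12:78861819-78887010. Eif2b3 (ENSMUSG00000028683) lies on the plus strand at chr4:117019402-117087306 and Eif2b5 (ENSMUSG00000003235) on the plus strand at chr16:20498817-20509323. Eif2s2 (ENSMUSG00000074656) lies on the minus strand at chr2:154871410-154892935, inside the nonagouti gene a, which runs on the other strand. Eif2a (ENSMUSG00000027810) lies on the plus strand at chr3:58525821-58557501. Eif2s3x (ENSMUSG00000035150) lies on the minus strand at chrX:94188707-94212862 and Eif2s3y (ENSMUSG00000069049) on the plus strand at chrY:1010543-1028847.

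The genes for eIF2 gamma are shown as sequence because whether a direction is read from the X-linked gene or from both genes changes it. Each coding sequence is 1419 bases long. They were identical at 86.3% of positions, and the encoded proteins of 472 residues differed at 10. The longest identical run was 34 bases. Bases 19 to 108 of the coding sequences (GENCODE vM21, mm10) are printed 5′ to 3′ with the 12 bases that differ in capitals.
Eif2s3x: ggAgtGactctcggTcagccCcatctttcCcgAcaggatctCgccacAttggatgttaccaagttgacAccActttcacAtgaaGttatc
Eif2s3y: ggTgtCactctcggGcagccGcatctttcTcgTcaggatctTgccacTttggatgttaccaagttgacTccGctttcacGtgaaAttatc
A read of 75 bases cannot match both coding sequences exactly. The X-linked transcript does share exact 75-base windows with another locus: 35.71% of them also occur in Gm2223, a processed pseudogene at chrX:33505661-33507010, which had 0 to 8 reads per library. For Eif2s2 22.37% of such windows occur in the processed pseudogene Gm9892, which had 0 to 15 reads. For Eif2s1 3.24% occur in another gene, mostly the processed pseudogene Gm12734, which had 0 to 31 reads. Levels of these 3 members are uncertain to the extent that such reads were dropped or assigned elsewhere. Eif2b1, Eif2b2, Eif2b3, Eif2b5, Eif2a and Eif2s3y shared no 75-base window with another gene.

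Promoters are shown for 2 eIF2B genes with different behaviour between the cell types: Eif2b2, which was lower in macrophages, and Eif2b5, which was not lower. The RefSeq table (GRCm38.p6) held 8 of the 9 members, without Eif2b3. The 250 bases upstream of the start are printed 5′ to 3′ on the gene's strand, at chr12:85219231-85219480 for Eif2b2 and chr16:20498567-20498816 for Eif2b5, with matches to CCAAT or its reverse complement ATTGG in capitals.
Eif2b2: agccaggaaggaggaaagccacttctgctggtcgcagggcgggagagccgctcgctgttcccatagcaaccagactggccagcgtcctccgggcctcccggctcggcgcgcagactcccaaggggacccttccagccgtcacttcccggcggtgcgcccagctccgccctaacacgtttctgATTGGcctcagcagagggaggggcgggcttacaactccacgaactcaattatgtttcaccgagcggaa
Eif2b5: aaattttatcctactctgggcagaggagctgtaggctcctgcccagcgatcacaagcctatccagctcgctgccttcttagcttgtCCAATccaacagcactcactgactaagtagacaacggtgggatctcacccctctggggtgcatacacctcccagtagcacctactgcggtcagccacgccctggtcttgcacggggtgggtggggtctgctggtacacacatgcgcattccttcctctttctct
The match lies 68 bases before the start in Eif2b2 and 164 bases before it in Eif2b5. Eif2b4 also holds a match, 64 bases before its start, so 3 of the 8 members with a window hold one, against 33.85% of all 32851 windows of that length. TGATGNAA, the core letters of the element that ATF4 and its partners bind, was found on either strand in 1 of the 8, Eif2s3x, against 3.45% of all windows. The windows of these last 2 genes, chr5:31193140-31193389 for Eif2b4 and chrX:94212652-94212901 for Eif2s3x, were set by RefSeq starts. They overlap the GENCODE vM21 genes located above, and both matches lie inside those genes. A match is a description of letters and not of a bound site.

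The libraries held 4595331 to 16056708 counts, with a median of 8628240. Siglecf was measured at 46.8 to 156 CPM (counts scaled to library size) in the macrophages and at 0 to 1.57 CPM in the monocytes. Of the classical monocyte markers, Ly6c2 was at 278 to 698 CPM in the monocytes and at 0.193 to 7.01 CPM in the macrophages. Plac8 was at a median of 1430 CPM in the monocytes and 1.06 CPM in the macrophages, where 3 libraries had 0. Ccr2 was at a median of 2050 CPM in the monocytes and 152 CPM in the macrophages. These markers set the populations apart, but no Siglec F-high cells were sampled, so they cannot show that Siglec F was low. Nonclassical monocyte markers were also high in the monocytes, with a median sum of 4159 CPM beside 4537 CPM for the classical ones. In the macrophages these medians were 395 and 158 CPM. T and NK cell markers summed to at most 59.5 CPM in any library. Neutrophil markers summed to 293 to 520 CPM in the monocytes, mostly from Csf3r (280 to 518), and to 46.3 to 83.8 CPM in the macrophages. Endothelial markers summed to 113 to 256 CPM in the macrophages, mostly from Vwf (110 to 249), and to 12.65 to 46.4 CPM in the monocytes. Young saline monocyte replicate 4 stood apart: it had the lowest total count, and its mean correlation with its own group was 0.925 against 0.952 to 0.974 for the others. Old ISRIB monocyte replicate 5 had the highest epithelial marker sum, 71.4 CPM, where the monocyte median was 0.879 CPM. Epithelial sums in the macrophages were 14.73 to 37.15 CPM, with a median of 26.18 CPM. All libraries had at most 0.568 CPM of Xist and at least 72.3 CPM of Ddx3y, a Y-linked gene, so both eIF2 gamma genes could be measured throughout. A difference in bulk RNA between sorted populations cannot tell fewer cells of a type from less RNA per cell.

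All members were detected in every library. Raw counts ranged from 23 reads (Eif2s3x in young saline monocyte replicate 4) to 1376 reads (Eif2a in old ISRIB monocyte replicate 2). Eif2b3 was the member with the lowest median, 88 reads, and ranged from 33 to 199. In CPM scaled by TMM over all libraries, the highest group mean of a member exceeded the lowest by 1.31 times for Eif2s3x, 1.32 times for Eif2b1, 1.33 times for Eif2s2 and 1.34 times for Eif2b5. That ratio was 1.66 for Eif2s1, 1.76 for Eif2b4, 1.85 for Eif2a, 2.08 for Eif2b2 and 2.69 for Eif2b3. For each of the last 5 genes the extremes were a monocyte group and a macrophage group, as the plot of levels by library shows.

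**Figure D1:**
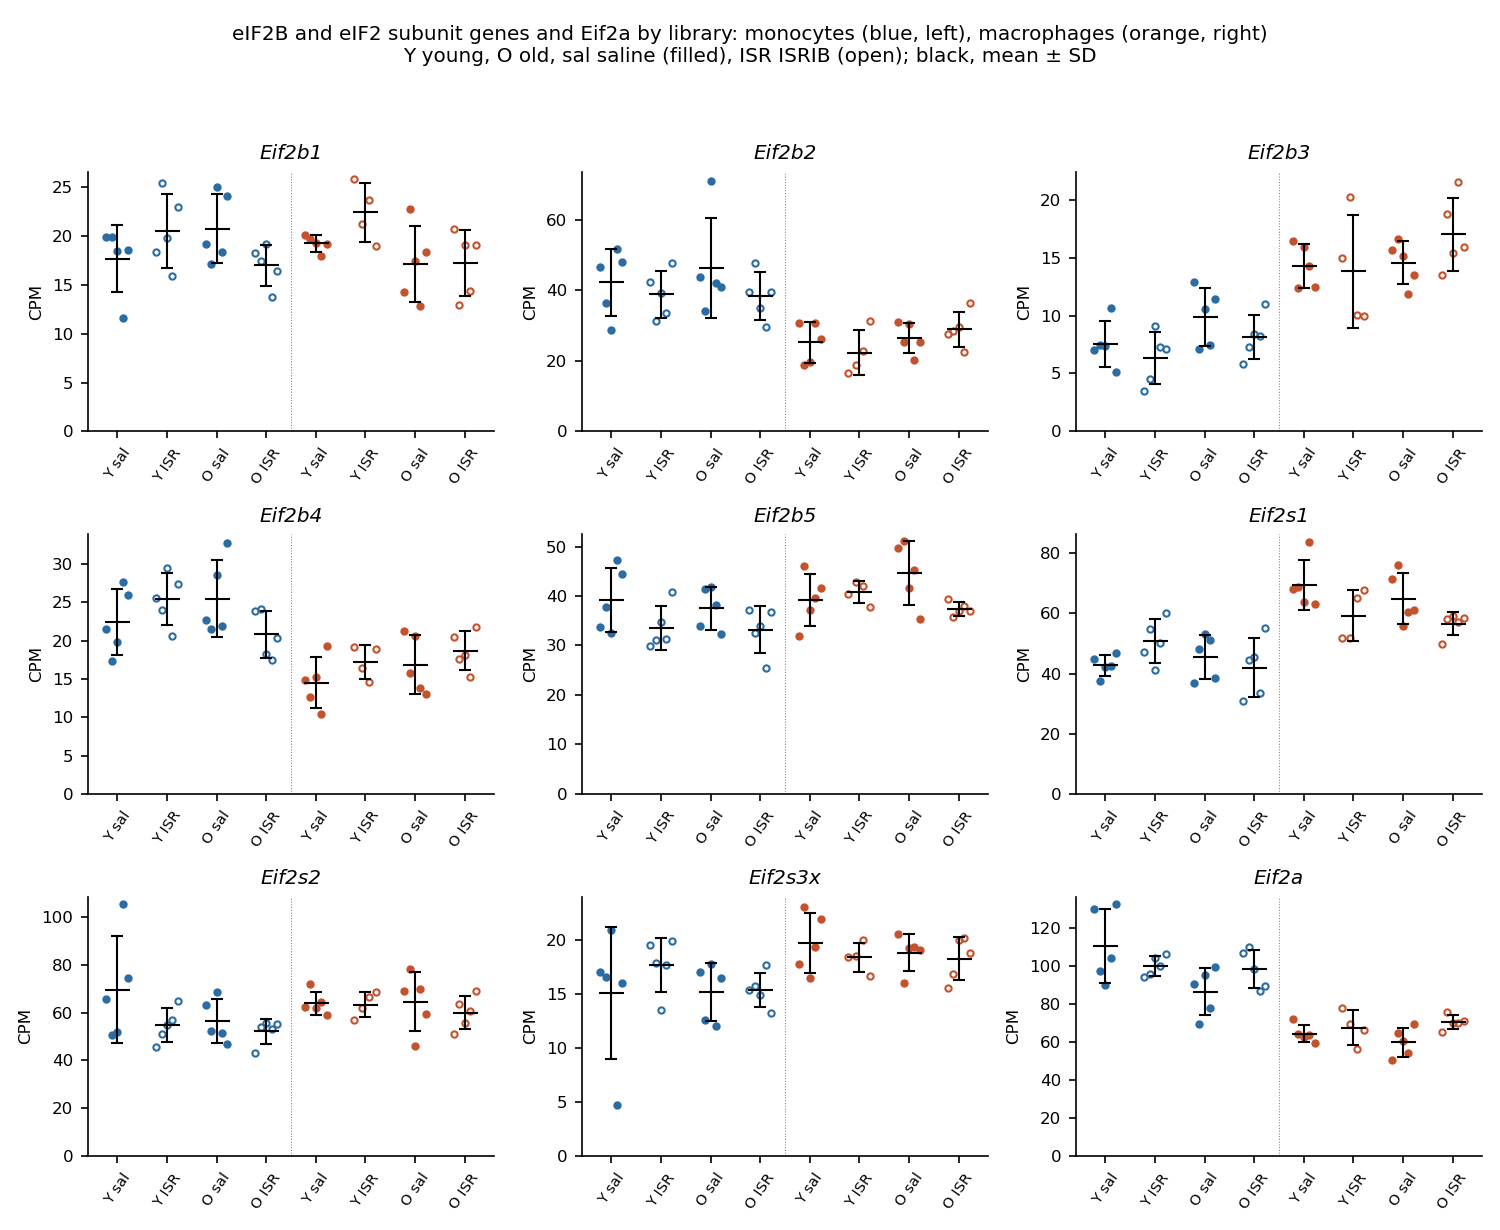
Level of each of the 9 genes in CPM (TMM-scaled, linear axis from 0) in every library, by group; filled points are saline, open points ISRIB, black bars the mean ± SD (n = 5 libraries, 4 for young ISRIB macrophages). Eif2b2, Eif2b4 and Eif2a lie mostly lower and Eif2b3 and Eif2s1 mostly higher in the macrophages (right of the dotted line), while saline and ISRIB groups of one cell type and age overlap for every gene.

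The first question was whether ISRIB changed the mRNA of its own target or of the target's substrate. In old macrophages no member was called: 0 of 9 passed an adjusted p of 0.05 in edgeR's quasi-likelihood test, and 0% of the 12171 genes tested did. In young macrophages 0 of 9 passed as well, again against 0% of all genes. At an unadjusted p under 0.05 there were 2 members in old macrophages, where 9.14% of all genes were under it, and 0 in young macrophages, where 12.4% were. With both ages averaged 0 of 9 passed, where 0.830% of all genes did. The members under an unadjusted p of 0.05 there were Eif2s1 and Eif2a, where 16.6% of all genes were under it. DESeq2 and limma voom called 0 of 9 members in every ISRIB and age comparison given here, also between ages and between cell types. Over these comparisons DESeq2 called 0% to 5.41% of all genes tested and limma voom 0% to 4.06%. For ISRIB in macrophages DESeq2 called 1.44% in old, 1.85% in young and 3.70% with the ages averaged. Limma voom called 0%, 0% and 1.39% there.

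For the ISRIB-binding subunits the saline and ISRIB macrophages overlapped at both ages. Eif2b2, the beta subunit, measured 30.9, 25.4, 30.4, 20.3 and 25.3 CPM in old saline macrophages and 27.6, 28.5, 29.7, 22.6 and 36.4 CPM in old ISRIB macrophages. The log2 difference was 0.13 (95% interval -0.24 to 0.49, edgeR adjusted p = 0.886). In young macrophages it was -0.18 (95% interval -0.57 to 0.21). Eif2b4, the delta subunit, measured 21.2, 15.8, 20.6, 13.9 and 12.98 CPM in old saline and 20.5, 17.6, 18.2, 15.3 and 21.8 CPM in old ISRIB macrophages, a log2 difference of 0.14 (95% interval -0.22 to 0.51). In young macrophages its difference was 0.24 (95% interval -0.15 to 0.63). Eif2b1, the alpha subunit, differed by 0.01 in old and 0.22 in young macrophages.

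The members nearest to the threshold in old macrophages were Eif2a and Eif2b5. Eif2a measured 50.3, 64.5, 60.4, 54.4 and 69.2 CPM with saline and 65.3, 75.6, 69.8, 69.9 and 70.8 CPM with ISRIB, and the groups overlapped. Its log2 difference was 0.23 (SE 0.10, edgeR adjusted p = 0.489). Eif2b5, the catalytic epsilon subunit, measured 49.8, 51.2, 41.7, 45.2 and 35.3 CPM with saline and 39.5, 35.7, 37.1, 37.9 and 36.99 CPM with ISRIB, again overlapping. Its difference was -0.25 (SE 0.11, adjusted p = 0.504) in old and 0.05 in young macrophages. The difference between these effects, old minus young, was -0.30 (95% interval -0.64 to 0.03, adjusted p = 0.954), and no member was called for a difference of its ISRIB effect between the ages (0 of 9, with 0% of all genes, and 0 of 9 at an unadjusted p under 0.05, where 5.10% were).

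Eif2s1, the gene for the phosphorylated subunit eIF2 alpha, had the lowest averaged ISRIB value of the 9 in macrophages. It measured 68.1, 68.8, 63.9, 83.7 and 63.1 CPM in young saline and 51.9, 51.8, 65.1 and 67.8 CPM in young ISRIB macrophages. In old macrophages the values were 71.6, 76.0, 55.7, 60.4 and 61.1 CPM with saline and 49.9, 58.1, 59.1, 57.2 and 58.5 CPM with ISRIB. Saline and ISRIB ranges overlapped at both ages, and the 2 differences were similar in size, -0.23 and -0.20. The averaged log2 difference was -0.22 (95% interval -0.38 to -0.05), which did not pass (edgeR adjusted p = 0.152). Averaged over age, Eif2b3 (gamma) differed by 0.09, Eif2s2 by -0.06 and Eif2s3x by -0.07.

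In monocytes ISRIB again called no member: 0 of 9 in old, in young and with the ages averaged, each against 0% of 12170 genes. The unadjusted count was 0 in old (7.54% of all genes), 0 in young (6.65%) and 1 in the average (Eif2b5, with 7.49%). The 5 eIF2B genes were all below 0 in old monocytes, between -0.31 (Eif2b4, adjusted p = 0.708) and -0.20 (Eif2b5), with none past the test. In young monocytes they ran from -0.24 (Eif2b3) to 0.21 (Eif2b1). With the ages averaged the other members were at 0.06 (Eif2s1), -0.24 (Eif2s2), 0.12 (Eif2s3x) and 0.01 (Eif2a), and Eif2s3y was at 0.05. Between the ages the ISRIB effect in monocytes was called for 0 of 9 members (0% of all genes, with 2 members and 7.11% of all genes at an unadjusted p under 0.05). Between macrophages and monocytes it was called for 0 of 9 members (0% of 13587 genes), the smallest adjusted p being 0.588 for Eif2s1, the 1 member with an unadjusted p under 0.05 (8.38% of all genes). Over the 36 ISRIB differences (9 genes, 2 ages, 2 cell types) the groups of libraries overlapped every time. Of all genes, 1.23% did not overlap in old and 3.98% in young macrophages, and 1.50% in old and 0.887% in young monocytes. For the members the 95% intervals reached from 0.555-fold to 1.64-fold. These are the outermost limits over the 36 differences and not a detection limit for each gene, and the tests do not show that levels were equal.

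Age was the next comparison. In macrophages 0 of 9 members were called with saline, where 1.16% of all genes were, 0 of 9 with ISRIB, where 0.937% were, and 0 of 9 with the treatments averaged, where 4.86% were. The unadjusted counts were 0 (12.7% of all genes), 1 (12.2%) and 1 (17.8%). The lowest adjusted p was 0.21, for Eif2b1, which averaged -0.27 in old against young macrophages (95% interval -0.52 to -0.03). Its values in young ISRIB macrophages averaged 22.4 ± 3.0 CPM (SD, n = 4) and in old ISRIB macrophages 17.2 ± 3.4 CPM (SD, n = 5), and these groups overlapped. Eif2b2 averaged 0.23 (95% interval -0.04 to 0.50) and Eif2b4 0.16 in the same contrast. Eif2b3 averaged 0.16 and Eif2b5 0.03. Eif2s1 averaged -0.08, Eif2s2 -0.03, Eif2s3x -0.04 and Eif2a -0.03, and Eif2s3y -0.14.

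In monocytes 0 of 9 were called for age with saline, where 0.0247% of all genes were, 0 of 9 with ISRIB, where 0% were, and 0 of 9 averaged, where 0.123% were. The unadjusted counts were 1 (8.81% of all genes), 0 (6.60%) and 1 (8.24%) in these contrasts, the member being Eif2a each time. It measured 130.1, 97.0, 89.9, 103.9 and 132 CPM in young saline monocytes and 90.6, 69.4, 94.9, 77.9 and 99.3 CPM in old saline monocytes. The log2 difference was -0.34 (SE 0.12, adjusted p = 0.388) with overlapping groups. Eif2b3 had the highest age value, 0.39 with the treatments averaged (95% interval -0.01 to 0.78, adjusted p = 0.613). The other eIF2B genes lay between -0.05 (Eif2b4) and 0.06 (Eif2b2), and Eif2s1, Eif2s2, Eif2s3x and Eif2s3y were at -0.09, -0.18, -0.09 and -0.11. No member was called for a difference of its age effect between the cell types (0 of 9, with 0.743% of all genes), and 0 had an unadjusted p under 0.05, where 11.5% did. The 95% intervals of the 36 age differences reached from 0.601-fold to 1.96-fold.

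**Figure D2:**
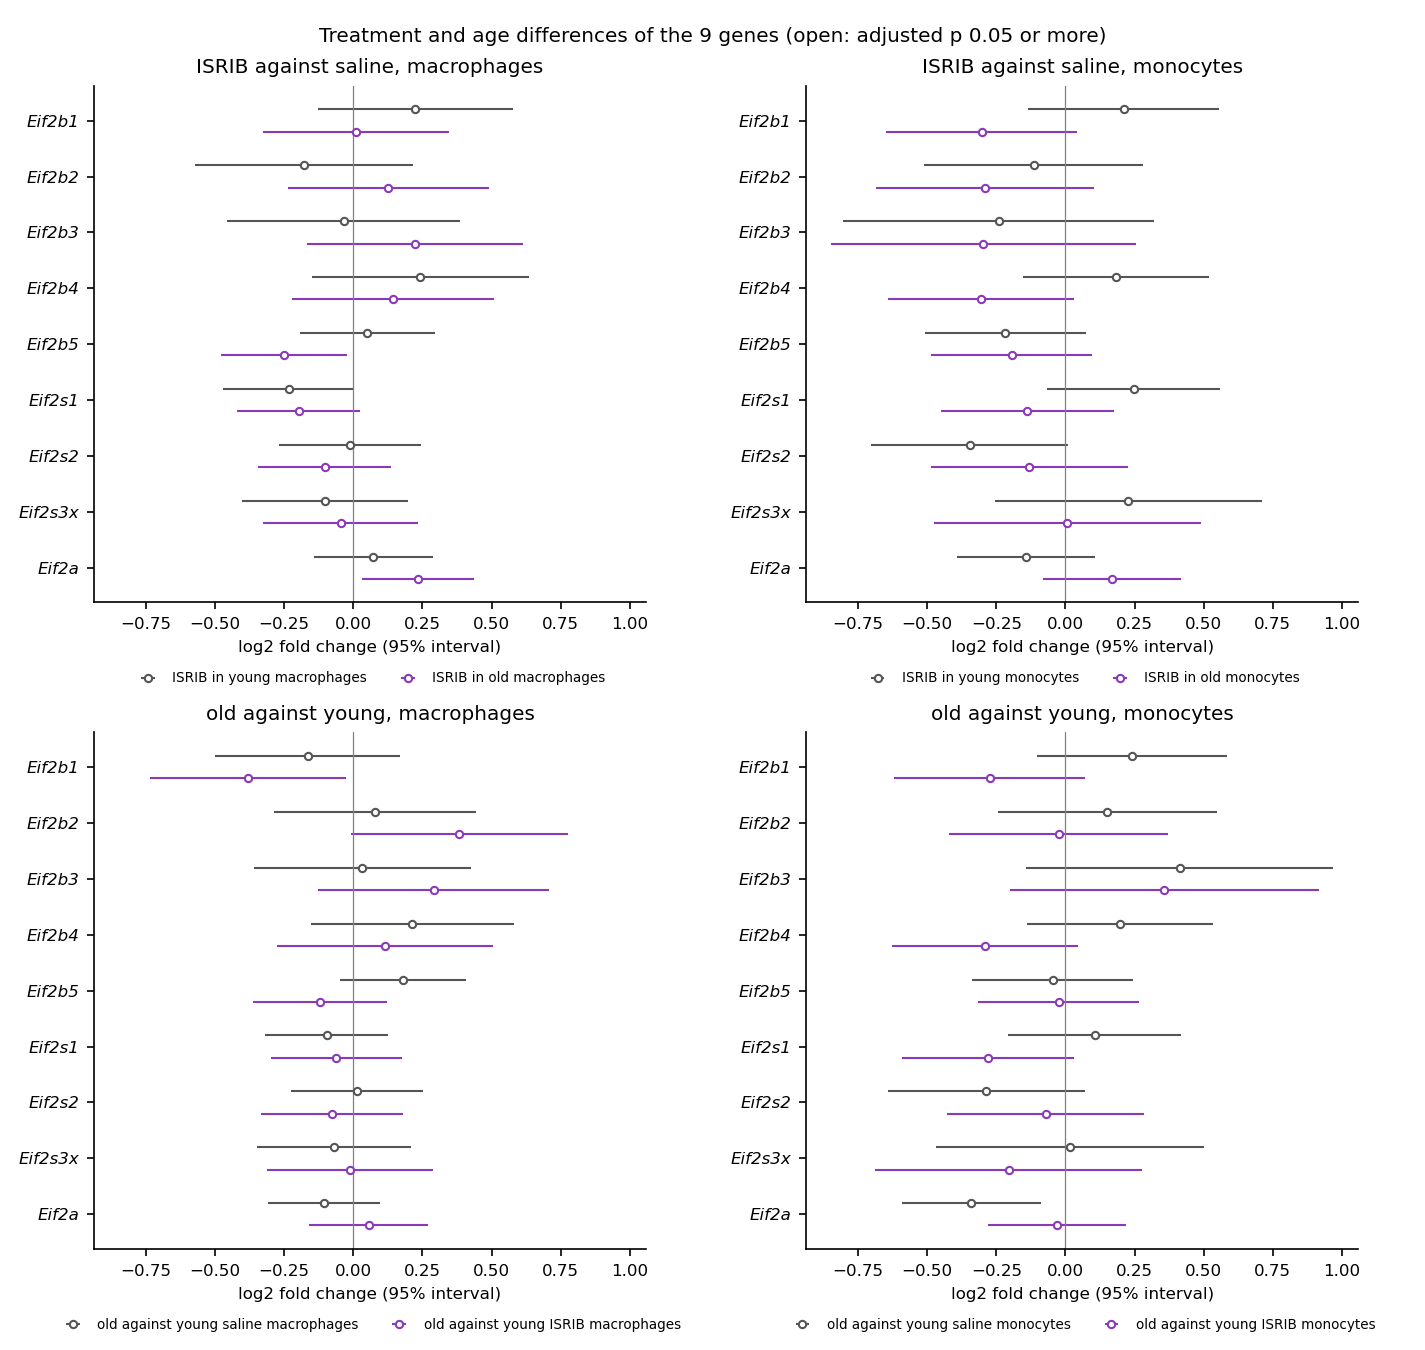
Log2 fold change with its 95% interval for each of the 9 genes: ISRIB against saline (upper panels) and old against young (lower panels), in macrophages (left) and monocytes (right). Every point is open, that is, 0 of 9 genes passed an adjusted p of 0.05 in any of the 8 comparisons, and most intervals include 0.

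The cell types differed. In macrophages against monocytes 7 of 9 members passed with the 4 strata of age and treatment averaged, 4 higher and 3 lower, where 79.2% of the 13587 genes tested passed (39.9% higher and 39.2% lower). The members' share is close to the background and is no result about them as a group. Without young saline monocyte replicate 4 the count was 8 of 9, and without old ISRIB monocyte replicate 5 it was 7. The median log2 difference of the 9 was 0.12 and that of all genes 0.00. By stratum the called members were 5 of 9 in young saline (60.0% of all genes), 4 in young ISRIB (57.3%), 5 in old saline (57.0%) and 3 in old ISRIB (59.4%). Groups lay apart with macrophages higher for 2 members in young saline (22.1% of all genes), 1 in young ISRIB (23.6%), 1 in old saline (22.5%) and 1 in old ISRIB (25.1%). They lay apart with macrophages lower for 1 (17.9%), 3 (23.1%), 3 (20.7%) and 1 (23.1%). The monocyte markers Ly6c2, Plac8 and Ccr2, epithelial markers and all other differences between the populations move with this contrast, and their part in the results was not tested.

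The genes for the ISRIB-binding pair were both lower in macrophages. Eif2b2 measured 46.5, 36.3, 28.6, 51.7 and 48.0 CPM in young saline monocytes and 30.7, 18.8, 19.8, 30.8 and 26.1 CPM in young saline macrophages. Only the ends of these groups overlapped, and the fall was 0.74 on the log2 scale (a difference of -0.74, SE 0.19, edgeR adjusted p = 0.00102). In old saline libraries monocytes had 43.9, 34.1, 70.8, 42.1 and 41.0 CPM and macrophages 30.9, 25.4, 30.4, 20.3 and 25.3 CPM, with no overlap and a difference of -0.81 (adjusted p = 3.99e-04). The young ISRIB stratum also gave -0.81, and its groups did not overlap. In the old ISRIB stratum, with means of 38.3 ± 6.7 CPM in monocytes and 28.96 ± 5.0 CPM in macrophages (SD, n = 5 each), the difference of -0.41 did not pass (adjusted p = 0.0628). It passed when only those groups were fitted (0.0207), and without old saline monocyte replicate 3 (0.0451), old ISRIB monocyte replicate 4 (0.0348) or old ISRIB macrophage replicate 5 (0.0322). Averaged over the strata the difference of Eif2b2 was -0.69 (95% interval -0.89 to -0.49, adjusted p = 3.92e-08).

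Eif2b4 showed a like order of groups. In old saline libraries it measured 22.7, 21.5, 28.6, 21.9 and 32.8 CPM in monocytes and 21.2, 15.8, 20.6, 13.9 and 12.98 CPM in macrophages. No macrophage reached the lowest monocyte, and the difference was -0.59 (SE 0.17, adjusted p = 0.00283). It was -0.61 in young saline and -0.56 in young ISRIB libraries, both past the test, and -0.16 (adjusted p = 0.433) in old ISRIB libraries, where the groups overlapped. The average was -0.48 (95% interval -0.65 to -0.31, adjusted p = 3.90e-06). For neither Eif2b2 nor Eif2b4 was a difference of the ISRIB or age effect between the cell types called. Those contrasts average over age or treatment. Whether the smaller value in old ISRIB libraries differs from the other strata was not tested. For the alpha subunit no fall was called: Eif2b1 ranged from 11.7 to 25.4 CPM in monocytes and from 12.9 to 25.9 CPM in macrophages, with an average difference of 0.00 (95% interval -0.17 to 0.17). Eif2b1 passed in old saline libraries once old saline macrophage replicate 2 was left out (-0.40, adjusted p = 0.0465).

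The catalytic pair went the other way or little. Eif2b3, the gamma subunit, measured 7.05, 7.43, 7.41, 10.6 and 5.16 CPM in young saline monocytes and 16.4, 12.3, 15.9, 14.2 and 12.5 CPM in young saline macrophages. Every macrophage lay above every monocyte, and the difference was 0.93 (SE 0.23, adjusted p = 7.21e-04). With ISRIB the young groups were also apart, at 3.53, 4.53, 9.08, 7.29 and 7.15 CPM in monocytes and 15.001, 20.2, 10.1 and 9.96 CPM in macrophages, a difference of 1.13. The old ISRIB libraries gave 1.06 (adjusted p = 1.28e-04) without overlap. In old saline libraries the groups overlapped, at 12.9, 7.11, 10.6, 7.50 and 11.4 CPM in monocytes and 15.7, 16.6, 15.1, 11.9 and 13.5 CPM in macrophages. That difference of 0.56 (adjusted p = 0.0322) was lost without old saline monocyte replicate 2 (0.0988) or 4 (0.0889), and without old saline macrophage replicate 1 (0.0593), 2 (0.0710) or 3 (0.0514). It was also lost with no filter on low counts (0.0703). Averaged over strata Eif2b3 was higher by 0.92 (95% interval 0.69 to 1.16, adjusted p = 3.61e-09), a 1.61- to 2.24-fold interval.

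Eif2b5, the epsilon subunit that carries the exchange activity, ranged from 25.5 to 47.2 CPM in monocytes and from 31.8 to 51.2 CPM in macrophages. The average difference was 0.18 (95% interval 0.05 to 0.30, adjusted p = 0.00914). No single stratum passed in this fit, the nearest being young ISRIB with 0.28 (adjusted p = 0.0638). That stratum and old saline passed with only genes of at least 1 CPM tested (0.0380 and 0.0448), and each with 1 library left out: young ISRIB monocyte replicate 5 (0.0212) and old saline macrophage replicate 5 (0.0251).

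**Figure D3:**
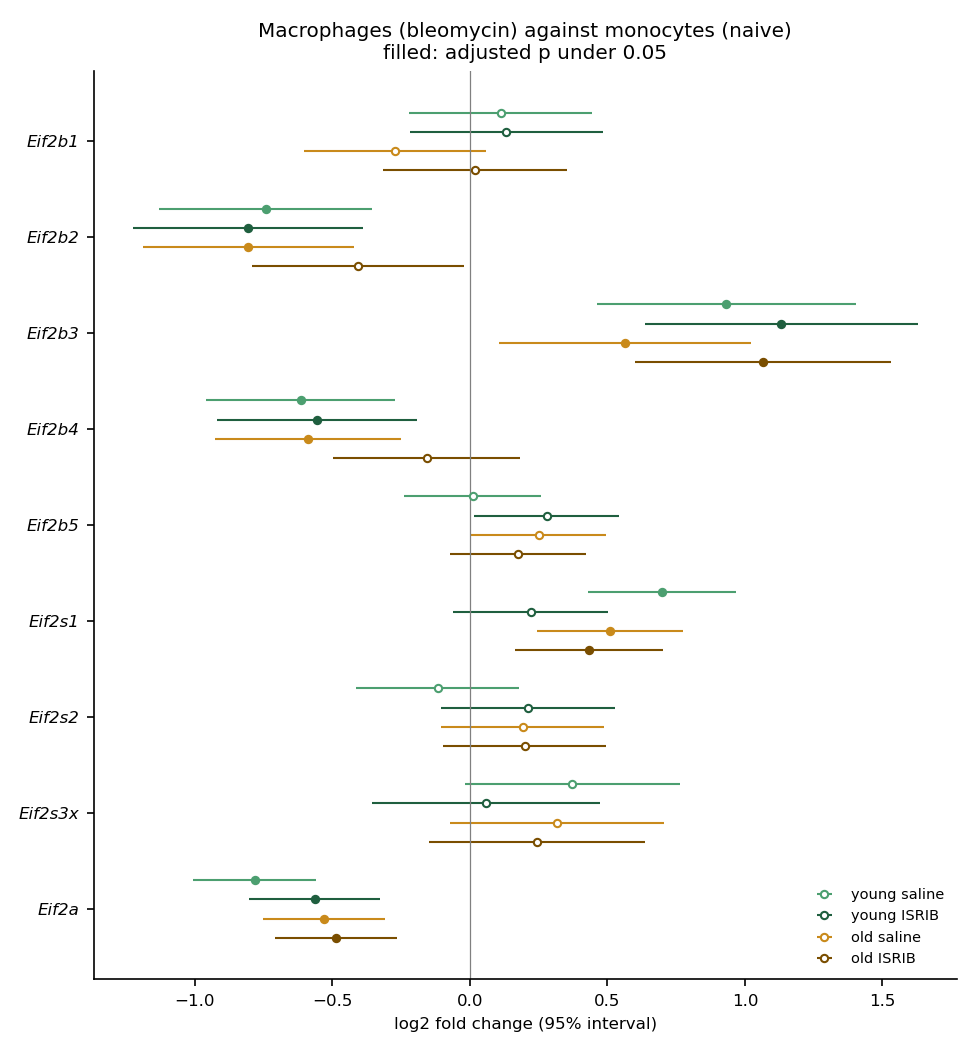
Log2 fold change of macrophages (bleomycin) against monocytes (naive) with its 95% interval for each gene in the 4 strata of age and treatment; filled points passed an adjusted p of 0.05. Eif2b2, Eif2b4 and Eif2a lie below 0 and Eif2b3 and Eif2s1 above 0 in all 4 strata, and Eif2b1, Eif2b5, Eif2s2 and Eif2s3x have no filled point.

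These shifts moved the proportions of the 5 eIF2B mRNAs within a library. The ratio of Eif2b3 to Eif2b2, in CPM, ran from 0.0831 to 0.293 in the 20 monocyte libraries, with a median of 0.205. In the 19 macrophage libraries it ran from 0.320 to 1.08, with a median of 0.533. No library of one cell type fell into the range of the other, whatever its age or treatment, and the group medians lay between 0.149 and 0.241 in monocytes and between 0.519 and 0.671 in macrophages. The ratio of Eif2b3 to Eif2b4 ran from 0.138 to 0.565 in monocytes and from 0.525 to 1.40 in macrophages, which overlap slightly. The ratio between the ISRIB-binding subunits, Eif2b2 to Eif2b4, overlapped widely, with medians of 1.80 in monocytes and 1.49 in macrophages. Length cancels when one gene pair is compared between libraries, so these comparisons need no gene length. The ratios follow from the differences above and are a description without a test.

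**Figure D4:**
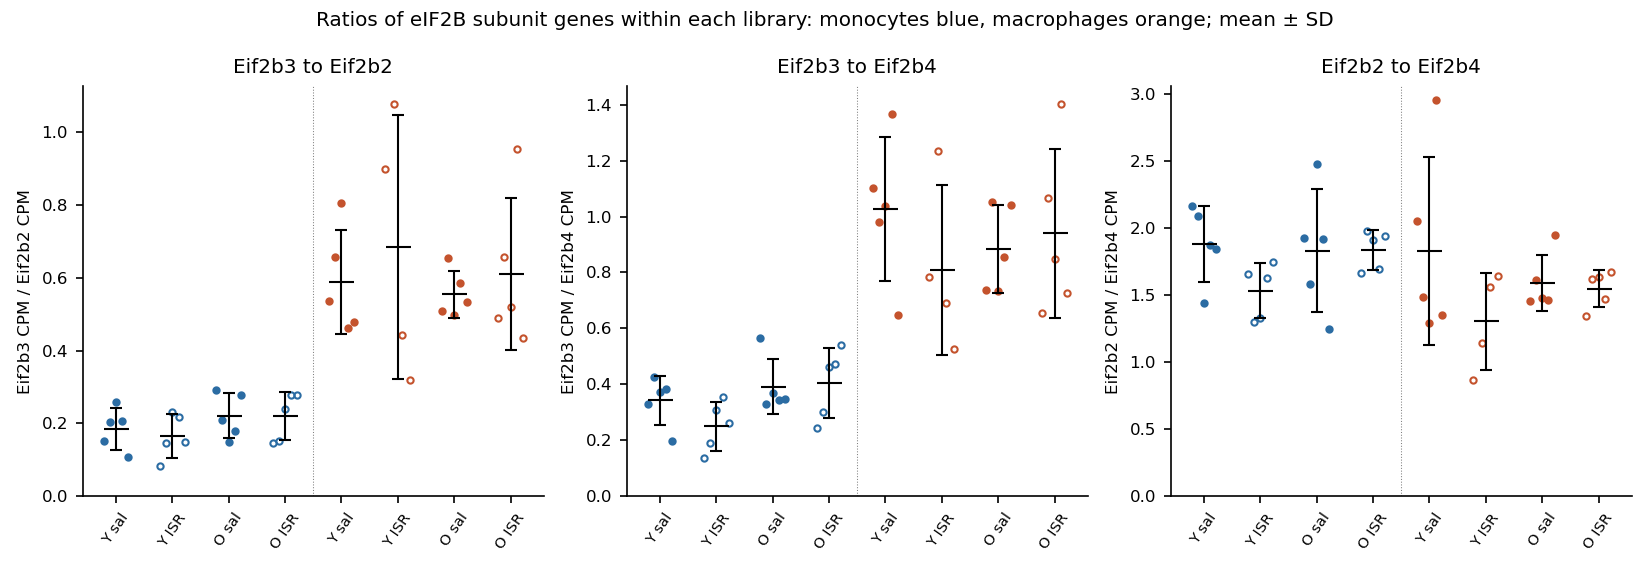
Ratio of CPM values of 2 eIF2B genes within each library, by group (linear axes from 0; mean ± SD, n = 5 libraries or 4 for young ISRIB macrophages). The Eif2b3 to Eif2b2 ratio separates all 20 monocyte libraries (at most 0.293) from all 19 macrophage libraries (at least 0.320). This pair joins the genes with the highest and the lowest difference between the cell types, and the other ratios overlap.

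Per kilobase of merged exons, and as a share of the summed 5 genes, Eif2b2 made up 40.8% ± 3.8 (SD, n = 20) in monocytes and 30.1% ± 5.0 (SD, n = 19) in macrophages. Eif2b5 was 26% ± 2.9 and 34.5% ± 4.2. Which of the pair led in macrophages depended on the length: with the longest transcript Eif2b2 had 29.96% ± 4.97 and Eif2b5 29.7% ± 3.85 there, while Eif2b2 led in monocytes with both lengths. Eif2b4 was 16.98% ± 2.0 and 14.2% ± 2.1, Eif2b1 was 13.9% ± 2.5 and 16.11% ± 3.0, and Eif2b3 was 2.31% ± 0.68 and 5.09% ± 1.17. A share of mRNA is not a share of subunits in the complex, and the shares of different genes depend on the length used. The mean level of Eif2b3, lowest of all members per kilobase of merged exons (1.75 CPM per kilobase), was 3.05 with its longest transcript and 7.36 with the median coding transcript of the basic annotation, the last length having been added after seeing the data.

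Among the eIF2 genes, Eif2s1 was higher in macrophages. It measured 44.9, 37.6, 42.2, 42.5 and 46.9 CPM in young saline monocytes and 68.1, 68.8, 63.9, 83.7 and 63.1 CPM in young saline macrophages. The groups were well apart, with a difference of 0.70 (SE 0.13, adjusted p = 2.03e-05). It was 0.51 in old saline (adjusted p = 0.00109, no overlap), 0.43 in old ISRIB (0.00498, with overlap) and 0.22 in young ISRIB libraries (0.176, with overlap). The average was 0.47 (95% interval 0.33 to 0.60, adjusted p = 6.19e-08). Eif2s2 ranged from 43.1 to 105 CPM in monocytes and from 46.0 to 78.3 CPM in macrophages. Its average difference of 0.12 did not pass (adjusted p = 0.133), but it did without young saline monocyte replicate 4 (0.17, adjusted p = 0.0152), the library that stood apart.

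For eIF2 gamma the X-linked and Y-linked genes went in opposite directions. Eif2s3x measured 17.05, 16.6, 21.0, 4.70 and 16.07 CPM in young saline monocytes and 17.8, 23.1, 16.5, 19.4 and 21.9 CPM in young saline macrophages, the low value of 4.70 being again young saline monocyte replicate 4. Its average difference was 0.25 (95% interval 0.05 to 0.45, adjusted p = 0.0208) and no stratum passed. The young saline stratum passed without young saline monocyte replicate 3 (0.0266) and the old saline stratum without young saline monocyte replicate 4 (0.0372). Eif2s3y measured 96.7, 89.8, 107, 93.7 and 89.9 CPM in young ISRIB monocytes and 65.9, 70.5, 72.7 and 78.7 CPM in young ISRIB macrophages. These groups were apart, and the fall was 0.41 (difference -0.41, SE 0.15, adjusted p = 0.0180). Averaged over the strata Eif2s3y differed by -0.39 (95% interval -0.54 to -0.25, adjusted p = 4.22e-06).

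The Y-linked gene had more reads than the X-linked gene in every library, with a CPM ratio of 2.65 to 5.47 in macrophages and 3.46 to 25.2 in monocytes, the last again from the library with 23 reads of Eif2s3x. The sum of both genes was therefore lower in macrophages. With the counts summed, an alternative added after seeing the data, the average difference was -0.28 (adjusted p = 4.43e-05), where Eif2s3x alone gave 0.25. The sum was 113 ± 5.3 CPM (SD, n = 5) in young ISRIB monocytes and 90.4 ± 4.8 CPM (SD, n = 4) in young ISRIB macrophages. Neither ISRIB nor age called Eif2s3y in either cell type, the ISRIB average in macrophages being -0.19 (adjusted p = 0.305).

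**Figure D5:**
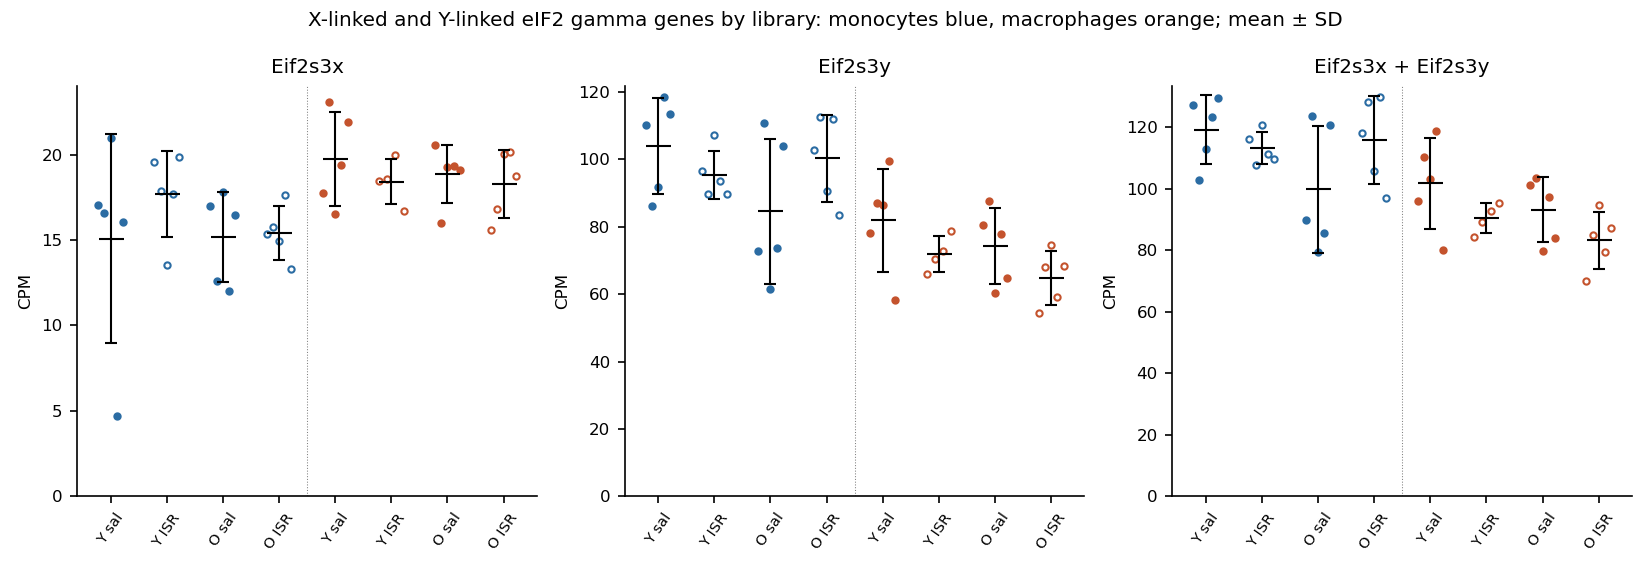
Level in CPM of Eif2s3x, Eif2s3y and their sum in every library, by group (linear axes from 0; mean ± SD, n = 5 libraries or 4 for young ISRIB macrophages). Eif2s3x averaged higher in macrophages (log2 difference 0.25), whereas Eif2s3y (-0.39) and the sum (-0.28) averaged lower.

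Eif2a was lower in macrophages in all 4 strata. It measured 94.1, 95.9, 104, 99.7 and 106 CPM in young ISRIB monocytes and 78.1, 69.5, 56.2 and 66.3 CPM in young ISRIB macrophages. Groups did not overlap in any stratum, and the differences were -0.78, -0.56, -0.53 and -0.49 in young saline, young ISRIB, old saline and old ISRIB libraries, with adjusted p from 9.83e-08 to 2.28e-04. The average was -0.59 (95% interval -0.70 to -0.48, adjusted p = 2.23e-12). Across all libraries the ranges overlapped in part, at 69.4 to 132 CPM in monocytes and 50.3 to 78.1 CPM in macrophages.

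For 4 members the start of a neighbour faces theirs, and the neighbours did not all move with them. Eif2b1 and Gtf2h3, a subunit gene of the general factor TFIIH, start 9 bases apart. Gtf2h3 fell in macrophages, by a difference of -1.01 on average (adjusted p = 3.76e-09), where Eif2b1 was at 0.00. Eif2b4 overlaps Snx17, a sorting nexin gene, by 204 bases, and Snx17 was at -0.07 (adjusted p = 0.227), where Eif2b4 fell. Eif2s1 and Atp6v1d, a gene of the vacuolar proton pump, start 181 bases apart and both rose, Atp6v1d by 0.996. Eif2a overlaps Serp1, an endoplasmic reticulum protein gene, by 72 bases and both fell, Serp1 by a difference of -0.61. The strand setting of the counting is not given in the sources used here, so reads from the overlaps of Eif2b4 with Snx17, of Eif2a with Serp1 and of Eif2s2 with the nonagouti gene may not be told apart.

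The rest of the pathway was read from 4 lists. For comparison, ISRIB in macrophages with the ages averaged called 0.830% of all genes (16.6% unadjusted, 3.70% in DESeq2 and 1.39% in limma voom). The averaged contrast of the cell types called 79.2%. For the eIF2 kinases and their helpers, 0 of 9 genes were called for ISRIB in macrophages with the ages averaged (2 had an unadjusted p under 0.05, with 0 called in DESeq2 or limma voom), and 8 of 9 between the cell types (79.2% of all genes), 3 higher and 5 lower in macrophages. Eif2ak4 (GCN2, the amino acid sensor) rose by 1.13 (SE 0.07, adjusted p = 1.64e-18), from group means of 22.99 to 27.4 CPM in monocytes to 52.6 to 62.6 CPM in macrophages. Eif2ak2 (PKR, the double-stranded RNA sensor) fell by 1.10 (SE 0.07, adjusted p = 1.11e-16), and the fall was 0.57 on the log2 scale for Eif2ak3 (PERK, the sensor of the endoplasmic reticulum; difference -0.57). Eif2ak1 (HRI, the heme-regulated kinase) was at -0.32 (adjusted p = 7.49e-08). The median of the list was -0.26 and that of all genes 0.00.

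The eIF2 alpha phosphatase list had 0 of 6 called for ISRIB in macrophages with the ages averaged (again 2 unadjusted, and 0 in DESeq2 or limma voom) and 6 of 6 between the cell types (79.2% of all genes), 2 higher and 4 lower, with a median of -0.44. Ppp1r15a, the stress-induced targeting subunit GADD34, fell by 2.87 (SE 0.12, adjusted p = 1.47e-23), with group means of 178 to 193 CPM in monocytes and 14.8 to 35.05 CPM in macrophages. Within macrophages it was higher with age in the saline groups, at 14.8 ± 2.9 CPM in young and 35.05 ± 6.1 CPM in old mice (SD, n = 5 each), a difference of 1.25 (adjusted p = 9.79e-04). The ISRIB groups lay closer, at 24.55 ± 9.92 CPM in young (SD, n = 4) and 32.48 ± 2.91 CPM in old mice (SD, n = 5). Of the 12 partners of eIF2 in initiation, 0 were called for ISRIB in macrophages with the ages averaged (1 unadjusted, and 1 in each of DESeq2 and limma voom) and 9 between the cell types (79.2% of all genes, 39.9% higher and 39.2% lower), 7 higher and 2 lower, with a median of 0.24. Eif5, the GTPase-activating protein of eIF2, was at 0.20 for ISRIB in macrophages with the ages averaged (adjusted p = 0.0688) and at -0.27 between the cell types (adjusted p = 1.10e-06). Cdc123, which assembles eIF2, was at 0.26 between the cell types (adjusted p = 1.21e-04).

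Of the 16 genes of the ATF4 arm, the transcriptional output of eIF2 alpha phosphorylation, 14 could be tested in macrophages. For ISRIB 0 of 14 passed in old and 0 of 14 in young macrophages, against 0% of all genes in both. At an unadjusted p under 0.05 there were 3 in old (9.14% of all genes) and 4 in young macrophages (12.4%). DESeq2 and limma voom also called 0 in both, where DESeq2 called 1.44% (old) and 1.85% (young) of all genes and limma voom 0%. The edgeR test with no filter on low counts called 2 in each, where 0.968% (old) and 0.986% (young) of all genes were called. With the ages averaged Atf5, a transcription factor gene translated under stress, rose by 1.02 (SE 0.25, adjusted p = 0.0429). Its means were 4.84 ± 2.71 CPM in young saline, 13.2 ± 4.5 CPM in young ISRIB, 13.1 ± 5.8 CPM in old saline and 20.5 ± 4.4 CPM in old ISRIB macrophages (SD, n = 5, 4, 5 and 5). That call was lost when all 39 libraries were fitted together. Atf4 itself was at 0.17 (adjusted p = 0.286) and Ddit3, which encodes CHOP, at 0.03 (adjusted p = 0.966). For age with the treatments averaged 3 of 14 rose in macrophages, where 4.86% of all genes were called: Phgdh by 1.05, Ddit4 by 1.55 and Atf5 by 1.01, while Atf4 was at 0.28 (adjusted p = 0.0518). Ddit4 was low in macrophages, with means of 0.850 CPM in young saline, 1.19 in young ISRIB, 2.41 in old saline and 3.61 in old ISRIB groups. Cell type markers moved over the same groups. Cd79a, a B cell marker, was at a median of 0.374 CPM (0 to 1.19) in young saline, 0.963 CPM (0.466 to 1.25) in young ISRIB, 2.94 CPM (1.36 to 6.49) in old saline and 7.55 CPM (3.28 to 9.25) in old ISRIB macrophages. The B cell marker Ms4a1 was at 0 in 4 of 5 young saline macrophage libraries and at 2.97 to 10.5 CPM in old ISRIB macrophages. The 7 alveolar macrophage markers summed to medians of 7644, 9690, 10250 and 14610 CPM in the same order, and the 6 monocyte-derived macrophage markers to 28990, 28820, 22500 and 16520 CPM. Chil3 was the highest of the 7 alveolar markers, at 3610 to 12000 CPM over the macrophage libraries, and weighed most in their sum. The part of these cell type markers in the ISRIB and age results of Atf5, Phgdh, Ddit4 and Ppp1r15a was not tested. Between the cell types 12 of 14 were called (79.2% of all genes), 5 higher and 7 lower, with a median of -0.19. Phgdh, the first enzyme of serine synthesis, rose by 4.58 and Ddit4 fell by 5.92, while Atf4 fell by 0.72 (adjusted p = 7.28e-10). The rise of Phgdh started from group means of only 0.581 to 1.51 CPM in monocytes.

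Per kilobase of merged exons, the order of mean level over the 8 groups was Eif2b2 (17.8 CPM per kilobase), Eif2b5 (14.7), Eif2a (13.4), Eif2s1 (10.9), Eif2s2 (8.97), Eif2b4 (7.77), Eif2b1 (7.36), Eif2s3x (4.55) and Eif2b3 (1.75). Eif2s3y, at 20.3 CPM per kilobase, stood above all of them. Neighbours in this order were not separate in most cases: Eif2b2 exceeded Eif2b5 in 27 of 39 libraries, Eif2b5 exceeded Eif2a in 23, Eif2a exceeded Eif2s1 in 24 and Eif2b4 exceeded Eif2b1 in 23. Eif2b1 exceeded Eif2s3x, and Eif2s3x exceeded Eif2b3, in 38 of 39. The order depends on the length: with the longest transcript Eif2a, at 23.9 CPM per kilobase, stood above Eif2b2, at 20.9. Eif2b3 stayed last with that length, at 3.05. Its merged exons span 6520 bases, where its median coding transcript in the basic annotation has 1555 bases and that of Eif2s3x 2375. With these median lengths, added after seeing the data, Eif2b3 was at 7.36 CPM per kilobase and no longer below Eif2s3x.

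The pattern over the 8 groups was then matched against the 6750 other genes that averaged 20 CPM or more, by the root mean square difference of centred log2 group means. The nearest gene to Eif2b2 was Fam53a (0.05 on the log2 scale, where Eif2b2 itself spanned 1.04). For Eif2b3 it was Hspbp1 (0.08, with a span of 1.45), for Eif2b4 N4bp1 (0.08, span 0.82) and for Eif2a Riok1 (0.07, span 0.88). For Eif2s1 it was Erlin2 (0.05, span 0.75). The members with flatter patterns were nearest to Mtif2 (Eif2b1), Osgep (Eif2b5), Cbx1 (Eif2s2) and Gclc (Eif2s3x). The mean of the 5 eIF2B genes spanned only 0.25 over the 8 groups, and the genes nearest to it were Rubcn, Zkscan3 and Stx7.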

How the data were processed

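The authors deposited raw counts per gene (whole numbers, not normalized) for 39 libraries. Per the submitters' processing notes, bcl2fastq 2.19.1, FastQC, Trimmomatic 0.36, STAR 2.6.0 and HTSeq 0.11.2 were used with the build mm10. Per the labels' protocols, libraries were made from 3 ng of total RNA with poly(A) selection. Neither the annotation release nor the strand setting is given in the sources used here. Of the 43430 gene identifiers, 42546 (98%) were named from GENCODE vM21. Libraries were grouped by the labels.

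The deposited counts were tested with edgeR 4.0.16 in R 4.3.3: TMM scaling, filterByExpr (minimum count 10, minimum total 15), the quasi-likelihood test and Benjamini-Hochberg adjustment over all genes tested, called at an adjusted p under 0.05. The 19 macrophage libraries were fitted together (12171 genes, biological coefficient of variation 0.206), as were the 20 monocyte libraries (12170 genes, 0.258). Comparisons across cell types used all 39 libraries (13587 genes, 0.246). There were 21 comparisons, and some share groups: both age comparisons and both ISRIB comparisons of a cell type are made from the same 4 groups. SE is the absolute log2 fold change divided by the square root of F, and intervals are 95%. The procedure was tested on simulated counts. Depth ran from 4595331 to 16056708 counts. Over 76 pairs of libraries of one group, chi-square per degree of freedom of the counts was 7.04 to 52.8, so none was taken as a repeat of another.

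Alternatives were DESeq2 1.42.0, limma 3.58.1 (voom), other size factors, other filters, other sets of libraries, a replicate block and leaving out each library. The members and lists were chosen with earlier results of these data known. The naming rule covers all 9 members and Eif2s3y, whatever their values; the text gives each one's main values and otherwise counts and ranges. From the lists, at most 4 called genes with the smallest p are named beside a fixed set: Atf4, Ddit3, Atf5, Ppp1r15a, the 4 kinases, Eif5 and Cdc123. The nearest genes were chosen by root mean square difference of log2 CPM (prior count 2) among genes averaging 20 CPM or more.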

Additional observations from a re-analysis of the deposited data

Results flagged for a closer look

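Of 72 sets of values (9 members in 8 groups), 5 held a library whose gap to its nearest neighbour was large against the range of its group. Chance flags about 1 in 20 such sets. Eif2b1 was lowest in young saline monocyte replicate 4, at 11.655 CPM, where the other 4 libraries had 18.5 to 19.9 CPM. Eif2b2 was highest in old saline monocyte replicate 3, at 70.807 CPM, where the others had 34.1 to 43.9 CPM. Eif2s1 was highest in young saline macrophage replicate 4, at 83.708 CPM, where the others had 63.1 to 68.8 CPM. It was lowest in old ISRIB macrophage replicate 1, at 49.909 CPM, where the others had 57.2 to 59.1 CPM. Eif2s2 was lowest in old ISRIB monocyte replicate 1, at 43.093 CPM, where the others had 53.0 to 55.8 CPM. No effect of ISRIB or age on a member was called as different between ages or cell types.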

How the results depend on the processing

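The number of members called stayed within 1.5 times its value in all 21 comparisons, under every alternative run and with any 1 library left out: 0 throughout for ISRIB and age, and 5 to 6, 4 to 5, 4 to 6, 3 to 4 and 7 to 8 between the cell types (young saline, young ISRIB, old saline, old ISRIB and averaged). Of 1317 single-gene results under alternatives other than leaving out 1 library, 7 changed their call. Among these, reversals were seen only for Eif2s3x in macrophages against monocytes when summed with Eif2s3y, a sum added after seeing the data: -0.322 in young ISRIB (adjusted p = 0.0239), -0.475 in old ISRIB (5.27e-04) and -0.28 averaged (4.43e-05). Of 4914 results with 1 library left out, 14 changed their call and 0 reversed. Replicate numbers did not pair the samples: same-numbered libraries correlated by -0.191 to 0.242, with 6 of 57 pairs over 0.1 and 11 of the libraries best with their own number. The replicate block changed no member's call, Eif2s1 for ISRIB in macrophages being -0.224 (adjusted p = 0.140) with it. Counts over all genes moved more: ISRIB in macrophages with the ages averaged called 17 (all 39 libraries in 1 fit) to 640 genes (no filter on low counts) against 101, with 343 under the replicate block. ISRIB in old macrophages called 0 to 220 and in young macrophages 0 to 224. Age in macrophages called 60 to 468 with saline against 141, 50 to 405 with ISRIB against 114, and 340 to 975 averaged against 592. Age in monocytes called 1 to 41 with saline against 3, 0 to 41 with ISRIB against 0, and 11 to 73 averaged against 15. ISRIB in monocytes called 0 to 21 in old mice, 0 in young mice and 0 to 2 averaged. The age effect between cell types called 88 to 218 against 101 and the ISRIB effect 0 to 36 against 0. The cause was not tested. With no filter, the median of all genes between the cell types was -0.121. Depth limits Eif2b3 and Eif2s3x most, at medians of 88 and 148 reads.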
